A study of Mus musculus with 36 samples.

Results

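H3K4me3, trimethylation of lysine 4 on histone H3, was compared in mouse embryonic stem cells after 24 hours and after 3 passages in 2i medium. The members were all peaks of the 2 deposited H3K4me3 lists on chromosomes 1 to 19 and X, 17435 peaks at 24 h and 18944 at 3 passages, merged into a region wherever they overlapped by at least 1 bp. This gave 20651 regions, from 4 of the 36 labelled samples of the study. With the H3K4me3 list of serum cells merged in as the starting point, there were 23044 regions.

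All groups used here were KH2 cells, an established mouse embryonic stem cell line, and all were ChIP-seq samples with the Millipore 07-449 antibody for H3K4me3 or with antibodies against Nanog, Sox2 or Oct4. The serum group grew in medium with fetal bovine serum and LIF, a cytokine that holds embryonic stem cells undifferentiated. The other groups grew for 24 hours or for 3 passages in 2i medium, also with LIF. The labels describe irradiated CF1 mouse fibroblasts as a feeder layer for maintenance, and do not say whether the 2i samples had feeders. Signal from feeder cells therefore cannot be told apart from a change of medium, and its part in the results was not tested. Each H3K4me3 condition has 2 labelled samples but 1 list without values per sample, so no comparison between conditions could be tested, and no spread between cultures is known. Intervals below are 95% exact binomial intervals for shares and order-statistic intervals for medians, and they cover counting error over regions only. Gene names could not be given because the annotation at hand was of another genome build, so regions are named by mm9 position and the labelled cell type was not checked against marker genes.

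H3K4me3 is deposited by SET1 and MLL methyltransferase complexes and sits mainly around the start sites of active or poised genes, where it lies over the nucleosomes that flank the start. Its domains differ in breadth, and broad domains are known from genes of cell identity. 2i medium blocks the kinases MEK and GSK3 and moves embryonic stem cells from the mixed states seen in serum towards a more uniform naive state. Oct4, Sox2 and Nanog are the transcription factors at the centre of the pluripotency network, and they bind promoters as well as distant enhancers.

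Between 24 h and 3 passages most regions were called at both times, and the calls that differed were short and weak and came more often from the later list. Of the 20651 regions, 14253 (69.0%) were called in both lists, which is 87.4% of the 16316 regions of the 24 h list and 76.7% of the 18588 regions of the 3-passage list. The other 31% were called in 1 list only. There were 2063 regions (9.99%) called at 24 h alone and 4335 (21%) called at 3 passages alone. Shared regions had a median width of 1351 bp at 24 h and 1536 bp at 3 passages. Regions of 24 h alone had a median width of 484 bp and those of 3 passages alone of 625 bp. The fold enrichment, the authors' ratio of signal over a control for each peak, had a median of 9.49 in the 24 h list for shared regions and of 4.72 for regions of that list alone. In the 3-passage list these medians were 12.6 and 5.87.

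Where the signal was strong the lists met almost completely. Ranked by the authors' −log10 q within each list, 998 of the top 1000 peaks of 24 h overlapped a 3-passage peak, and 1000 of the top 1000 peaks of 3 passages overlapped a 24 h peak. Among the top 10000 the numbers were 9968 and 9804. The lists do not end at the same level, because the weakest 24 h peak had a −log10 q of 4.91 and the weakest 3-passage peak one of 14.3. Of the 2063 regions of 24 h alone, 1952 (94.6%) lay below the lowest value of the 3-passage list, against 22.2% of the shared regions. The −log10 q of different lists need not be on a common scale, so such a region may hold signal at 3 passages that was not listed.

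The regions that differed had different pasts. Of those called at 24 h alone, 54.6% (52.4 to 56.7) were already called in serum. Of these 1126 regions, 887 lay in serum regions without any 3-passage peak, and 239 in wider serum regions that held a 3-passage peak elsewhere. Of those called at 3 passages alone, 38.0% (36.5 to 39.4) were called in serum. Of these 1646 regions, 1352 lay in serum regions without any 24 h peak, and 294 in wider serum regions that held a 24 h peak elsewhere. The other 2689 (62.0%) were not called in serum either. Among the shared regions 97.9% were called in serum.

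**Figure D1:**
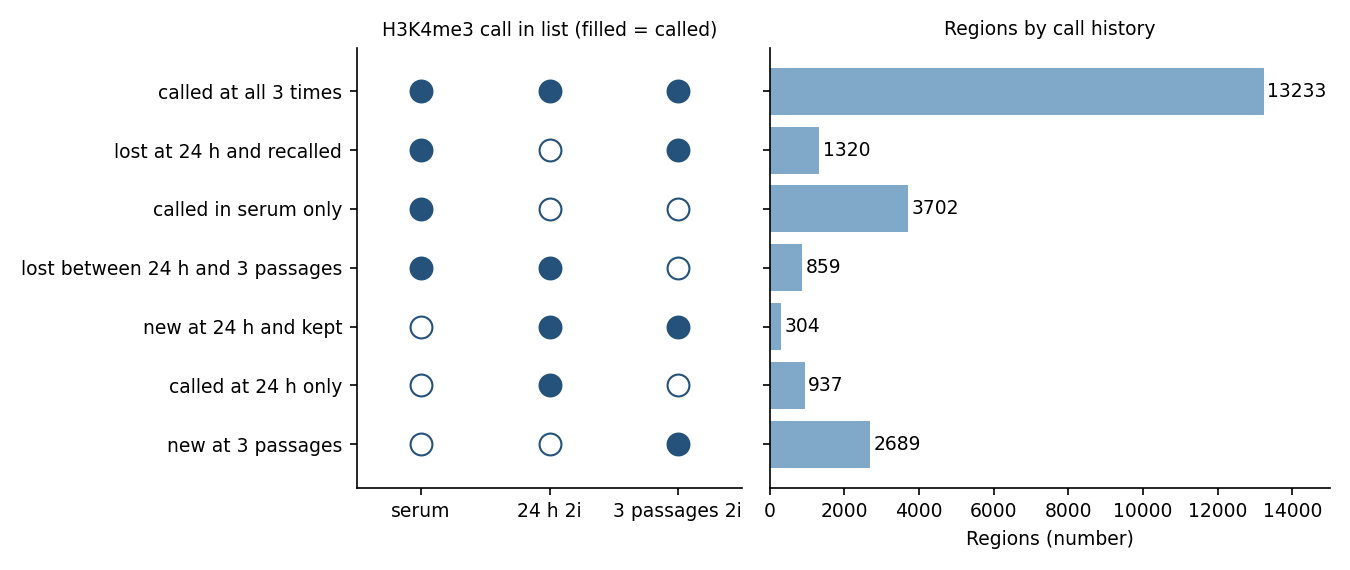
Call histories of the 23044 regions merged from the serum, 24 h and 3-passage lists of H3K4me3. Filled circles mark the lists that call a region and bars give the number of regions with each history: 13233 regions were called at all 3 times, 3702 in serum only, and 1320 were lost at 24 h and called again at 3 passages.

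With serum as the starting point, some of the regions that had lost their call at 24 h were called again at 3 passages, and how many depended on where the lists end. Of the 19114 serum regions, 5022 (26.3%) were not called at 24 h and 4561 (23.9%) were not called at 3 passages. Both comparisons share the serum list. Of the 5022 regions lost at 24 h, 1320 were called again at 3 passages, a share of 26.3% (25.1 to 27.5), and 3702 were called in serum only. The same count with the 2i times exchanged gives a base for reading this share, since a weak region can drop out of any list. Of the 4561 regions without a call at 3 passages, 859 were called at 24 h, which is 18.8% (17.7 to 20). Neither share was stable. With all lists limited to a common −log10 q of at least 14.3, 53.8% of the regions lost at 24 h were called at 3 passages, against 2.69% in the exchanged count, and with a minimum of 10 the shares were 39.4% and 5.31%. With the 3 lists cut to equal length the order turned, with 25.2% (23.7 to 26.7) against 27.3% (25.8 to 28.8). Regions kept through the first day were mostly kept afterwards, and 13233 of the 14092 regions called in serum and at 24 h (93.9%) were called at 3 passages.

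Gains made in the first day were few and weak. The regions not called in serum numbered 3930, of which 31.6% (1241) were called at 24 h. Of these, 304 were called at 3 passages, a share of 24.5% (22.1 to 26.99), and 937 were called at 24 h only. Few of the 1241 passed a stricter limit, and the kept share then turned to a majority, 60.3% of 121 regions at a minimum −log10 q of 10 and 78.1% of 73 regions at the common limit of 14.3. Seen from the other side, 304 of the 2993 gained regions of the 3-passage list were present at 24 h, which is 10.2% (9.10 to 11.3), and 2689 appeared at 3 passages for the first time. The 937 regions of 24 h only were the weakest class, with a median width of 422 bp, a median fold enrichment of 4.78 and a highest fold enrichment of 8.79. Of them, 98.7% had a −log10 q below the lowest of the 3-passage list. For the 304 kept regions this share was 89.8%, so that most kept regions were also weak at 24 h.

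The kept gains were mostly wider at 3 passages than at 24 h, as were the constant regions. The median width of the kept gains went from 502 bp to 701 bp, 76.6% (71.5 to 81.3) were wider at the later time against 71.8% of the regions called at all 3 times, and 57 were at least 2-fold wider. The regions that returned after a first day without a call came back smaller than they had been. Their median width was 985 bp in serum and 776.5 bp at 3 passages, the median ratio of the paired widths was 0.815, and 31.4% were wider at 3 passages than in serum. In the regions called at all 3 times this ratio was 0.916 and 31.1% were wider, so the share of wider regions was nearly the same.

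Return of the call went with the strength of the serum peak. Serum regions were divided into quintiles of their serum fold enrichment. In the lowest quintile 73.8% were lost at 24 h and 21.9% (20.4 to 23.5) of the lost regions were called again at 3 passages. In the middle quintile 10.6% were lost and 48.5% (43.5 to 53.5) of these returned. In the fourth quintile only 36 regions were lost, of which 22 returned, and in the top quintile 5 were lost, of which 3 returned. With the 2i times exchanged the shares were 11.5% in the lowest quintile, 21.6% in the next and 48.3% in the middle one. The return after 24 h lay above its exchanged value in the lower quintiles of the lists as deposited, and the intervals overlapped from the middle quintile upwards. With lists of equal length the lowest quintile gave 21.3% against 19.4% exchanged, with overlapping intervals, and the middle quintile 45.5% against 58.5%. In both orders and at both list lengths the share rose from the lowest to the middle quintile. By serum width the return rose from 18.99% in the narrowest quintile to 52.1% (37.2 to 66.7) in the widest, where 48 regions were lost.

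**Figure D2:**
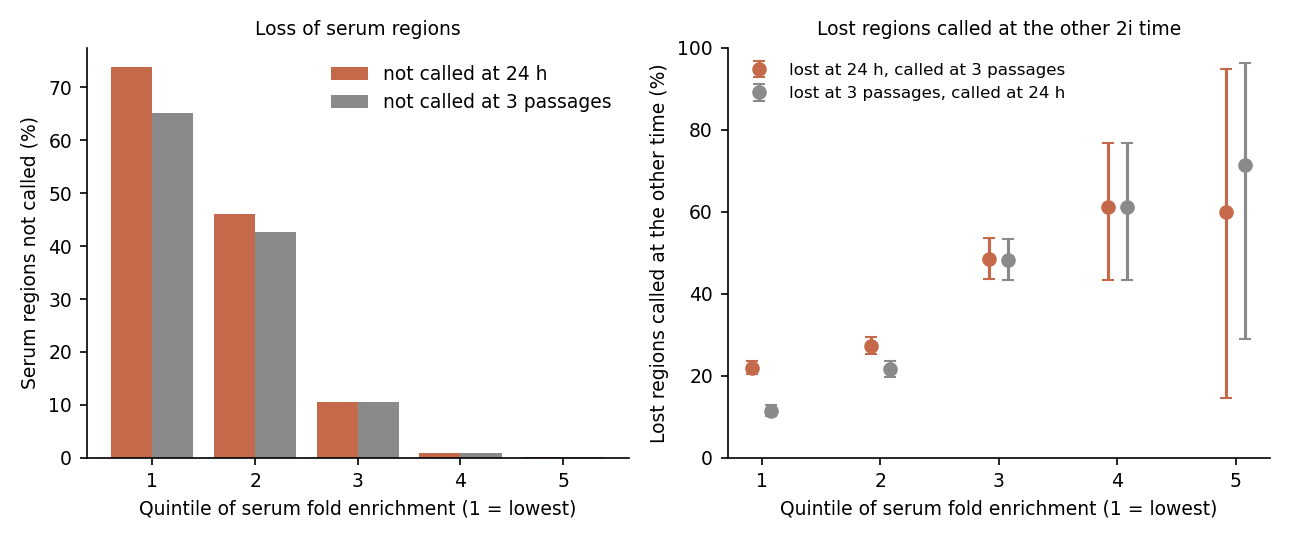
Serum H3K4me3 regions by quintile of serum fold enrichment (horizontal axis). The left bars give the percent of serum regions not called at 24 h or at 3 passages, and the right points give the percent of lost regions called at the other 2i time with exact binomial 95% intervals: the 2 series part in the lowest quintiles (21.9% against 11.5% in the first) and overlap from the third in the lists as deposited, and the top quintile holds only 5 regions lost at 24 h.

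Most changed regions lay farther than 5 kb from the nearest constant one. A changed peak that overlapped a constant region was merged into it, so change at the edges is not part of this count. Among the regions that returned, 21.6% lay within 5 kb of a region called at all 3 times, against 15.9% (14.7 to 17.1) of those called in serum only and 21.4% of those new at 3 passages. The kept gains were the class most often close, at 28.3% (23.3 to 33.7). The regions of 24 h only differed in distance, with a median of 160195 bp to the nearest constant region. In the other changed classes the median distance ran from 21448 to 38367 bp.

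Single regions show the range of these histories, and they were taken by a fixed rule from the highest fold enrichments of each class. The region 11:4846272-4848550 had the highest serum fold enrichment of the named regions that returned, at 35.8. It spanned 2279 bp in serum, was not called at 24 h, and came back at 995 bp with a fold enrichment of 6.33. Other returned regions were listed with a higher value at 3 passages than in serum. The region 5:105287409-105289864 covered 1799 bp in serum with a fold enrichment of 9.41 and 2456 bp at 3 passages with 30.7. The region X:155957151-155960374 covered 1918 bp and then 3224 bp, with fold enrichments of 10.5 and 30.2, and it held a Nanog peak at 3 passages. The region 13:98589719-98591350 had nearly the same width before and after its gap, 1409 and 1378 bp. These fold enrichments come from separate lists and are set side by side without a ratio.

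Among regions that did not return, 19:5796158-5803666 was the strongest, with 7509 bp and a fold enrichment of 28.8 in serum and no H3K4me3 call at either 2i time. It held Nanog peaks in serum and at 24 h and Sox2 peaks at all 3 times. The opposite order, a mark that outlasted the first day and then dropped out of the list, was seen at 16:23106330-23113500. This region spanned 7171 bp in serum and 6684 bp at 24 h, with fold enrichments of 51.6 and 38.1, and had no peak at 3 passages. It carried a Nanog peak at 24 h with both antibody lots.

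Among the kept gains, 1:39711273-39714458 was a peak of 414 bp at 24 h with a fold enrichment of 4.68 and a peak of 3186 bp at 3 passages with 71.8. No factor list held a peak there. The region 17:40630963-40632723 went from 836 to 1761 bp, with fold enrichments of 5.32 and 38.6, and it met a peak in each of the 9 factor lists. At 7:52380108-52384300 the peak was already 4043 bp wide at 24 h and 4193 bp at 3 passages. The strongest region that appeared at 3 passages was 1:162963066-162965082, 2017 bp wide with a fold enrichment of 27.7. Next came X:104493469-104496714, 3246 bp wide with 26.0, which had a Nanog peak at 3 passages and at 24 h with the other antibody lot.

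Listed widths showed a narrowing in the first day and a partial return, and the fold enrichments of the lists took the same course. In the 13233 regions called at all 3 times the median width was 1864 bp in serum, 1471 bp at 24 h and 1657 bp at 3 passages. These regions covered 27.1, 21.7 and 24.4 Mb. Their median fold enrichment was 16.9, 9.90 and 13.2 in the same order. Over the whole lists the median −log10 q was 68.7, 26.2 and 68.5. These values need not be on a common scale, and whether the widths follow the strength of the list was not tested. The median log2 ratio of width at 24 h over serum was −0.29, a ratio of 0.820, and 88.7% of the regions were narrower. At 3 passages over serum the median log2 ratio was −0.13, a ratio of 0.916. The direct comparison of 3 passages with 24 h gave a median log2 ratio of 0.13 (0.129 to 0.141), a ratio of 1.098, and 71.8% of the regions were wider at 3 passages. By at least 1.5-fold, 1727 regions (13.1%) were wider and 358 (2.71%) were narrower at 3 passages than at 24 h. With each list's widths divided by their median, which takes out the shift common to all regions, 1051 were wider and 637 narrower. Of the 1727 regions, 1261 had narrowed by at least 1.5-fold from serum to 24 h.

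A region was called narrowed when it lost at least 1.5-fold of its serum width at 24 h, and recovered when its width at 3 passages lay above the geometric mean of its serum and 24 h widths, the midpoint of the loss on a log scale. In all 3173 regions (24%) had narrowed at 24 h, and 30 (0.227%) had widened by the same factor. With widths divided by the list medians the numbers were 1349 and 221, so most of the imbalance lay in the narrowing common to the whole list. Of the narrowed regions 1609 recovered, which is 50.7% (49.0 to 52.5), and 1564 were still narrow. With the 2i times exchanged, 434 of the 1880 regions narrowed at 3 passages lay above that midpoint at 24 h, or 23.1% (21.2 to 25.1). With widths divided by the list medians the shares came closer, at 52.4% (49.7 to 55.1) and 43.9% (41.1 to 46.8). The narrowed regions were chosen on their 24 h width, and the exchanged count is given beside theirs for this reason. Of the recovered regions 813 were back to at least 90% of their serum width. The recovered class had median widths of 1602, 788 and 1464 bp in serum, at 24 h and at 3 passages. The class that was still narrow began at 1670 bp, fell to 865.5 bp and stood at 901.5 bp. Before the change the classes were therefore alike in width, and they were alike in serum fold enrichment, with medians of 12.4 and 12.7.

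Recovery of width hardly depended on how broad the domain had been. It was 59.6% (54.4 to 64.6) among narrowed regions of 500 to 1000 bp in serum and between 48.6% and 49.9% in each broader class, up to regions of 4000 bp and more. Both of the 2 narrowed regions below 500 bp recovered. The narrowing itself was most frequent at 1000 to 1500 bp, with 32.9% of regions, and less frequent in both directions, with 28.8% at 500 to 1000 bp, 2 of 56 regions below 500 bp and 14.6% at 4000 bp and more. In the latter, the broad domains, the median width went from 4726 bp in serum to 3958 bp at 24 h and 4381 bp at 3 passages.

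**Figure D3:**
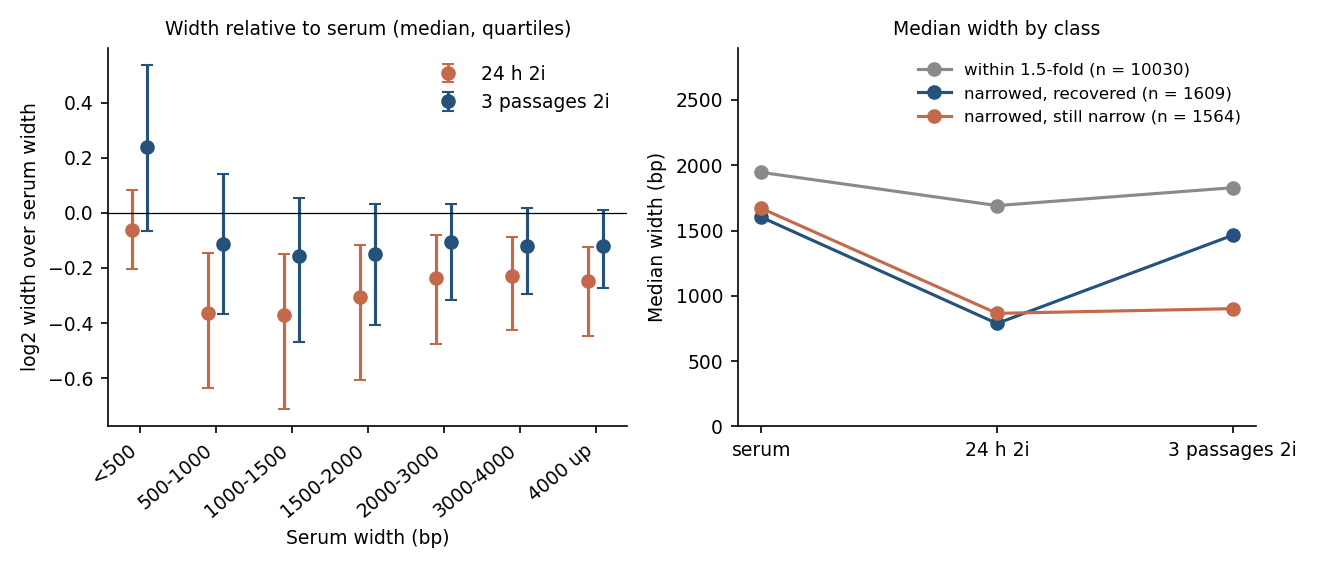
Width of the 13233 H3K4me3 regions called at all 3 times. The left panel gives the median and quartiles of the log2 ratio of 2i width over serum width by serum width class in bp, where from 500 bp upwards the 3-passage points lie closer to 0 than the 24 h points; the right panel gives median widths in bp of the regions that recovered (1602, 788 and 1464 bp), that were still narrow (1670, 865.5 and 901.5 bp) and that changed by less than 1.5-fold at 24 h.

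The lost width lay at both ends of most narrowed regions, though unequally. Only regions with a single peak in each list were used for this count. At least 90% of the loss fell on 1 end in 21.5% of 1273 recovered regions and in 24.5% of 1375 regions that were still narrow, against 48.1% of regions below the 1.5-fold limit. In recovered regions the end with the larger loss was set back by a median of 501 bp at 24 h and of 92 bp at 3 passages. In regions that were still narrow it was set back by 557 and 500 bp. The other end was set back at 24 h by a median of 163 bp in recovered regions and of 158 bp in those still narrow. The number of listed peaks in a region also changed, and whether the domains themselves were split was not tested. Of the 13071 regions that were a single serum peak, 1785 (13.7%) were 2 or more peaks at 24 h, and 1033 of these (57.9%, 55.5 to 60.2) were a single peak again at 3 passages. At 3 passages 1237 regions were 2 or more peaks, and 485 of these (39.2%) were a single peak at 24 h.

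Counted in bases, 11.04 of the 32.8 Mb covered by serum peaks (33.7%) were not covered at 24 h, and 34.1% of those bases were covered again at 3 passages. With the 2i times exchanged the share was 18.2% of 8.90 Mb. Inside the regions called at all 3 times, 5.89 Mb were lost at 24 h and 46.9% of them returned, against 25.03% in the exchanged count.

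Regions that were to leave the list after the first day were narrower at 24 h already. The 859 regions called in serum and at 24 h but not at 3 passages had a median ratio of 24 h to serum width of 0.591, against 0.820 in the regions called at all 3 times. They were weaker in serum, with a median fold enrichment of 7.74 against 16.9. Within the third quintile of serum fold enrichment the ratios were 0.548 in 194 such regions and 0.771 in 3222 constant regions. In the lowest quintile they were 0.647 and 0.710. Of these 859 regions 90.1% had a 24 h −log10 q below the lowest of the 3-passage list.

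Large swings were seen in single regions, named by the largest ratio of serum to 24 h width among serum widths of at least 2000 bp. The region 8:44381304-44386258 covered 4779 bp in serum, 379 bp at 24 h and 4601 bp at 3 passages. At 3:135184701-135187901 the widths were 3090, 304 and 3201 bp, and Nanog peaks were present at 24 h and 3 passages. The region 13:73481543-73485136 went from 3594 to 324 and then 1889 bp, and it held Nanog and Sox2 peaks at all 3 times and an Oct4 peak at 24 h. Still narrow at 3 passages was 7:28109948-28115739, with 5792, 514 and 1725 bp, which had Nanog peaks in serum and at 24 h only. At 17:47706804-47709298 the widths were 2495, 412 and 1002 bp although each of the 9 factor lists held a peak there. At 6:4696341-4698961 no factor peak was listed and the widths were 2621, 449 and 423 bp. A rare widened region, 13:62282993-62284218, was named by the ratio of 24 h to serum width and measured 374, 1226 and 471 bp.

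Factor peaks were then counted in each class at each time, a region counting as bound when a factor peak overlapped it by at least 1 bp. Nanog had lists of antibody lot 1 in serum, at 24 h and at 3 passages, with 25513, 41729 and 33184 peaks, and a list of lot 2 at 24 h with 21893 peaks. Sox2 had lists at all 3 times, with 13116, 15268 and 8749 peaks. Oct4 had lists in serum and at 24 h, with 5011 and 7820 peaks, and no Oct4 list at 3 passages was used here. The labels hold 1 sample for lot 2 of Nanog, for Sox2 at 3 passages and for each Oct4 list. As lists differ in length, shares are also given with the 3 Nanog lists of lot 1 cut to their 25513 strongest peaks by −log10 q.

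Regions that returned carried factor peaks more often than regions that stayed without a call, at each time and for each factor. They stood close to the whole, since Nanog peaks lay in 15.1%, 24.1% and 14.3% of all 23044 regions in serum, at 24 h and at 3 passages, and it was the regions without a return that were low. At 24 h, when neither class had an H3K4me3 call, Nanog peaks lay in 23.5% (21.2 to 25.9) of the 1320 regions that returned and in 9.43% (8.50 to 10.4) of the 3702 that did not. At 3 passages the shares were 16.8% (14.8 to 18.9) and 5.67% (4.95 to 6.47). In serum, before the change, they were 15.2% and 7.32%. Sox2 peaks lay in 7.65% of the returned and 2.40% of the serum-only regions at 24 h, and in 6.14% and 1.70% at 3 passages. Oct4 peaks at 24 h lay in 5.53% and 1.16%. Over all regions Sox2 peaks lay in 6.81% at 24 h and 4.86% at 3 passages, and Oct4 peaks in 4.57% at 24 h. The classes differ in length, but among regions of 1000 to 1500 bp the Nanog shares at 24 h were 23.4% and 13.5%, and at 3 passages 16.9% and 7.13%.

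**Figure D4:**
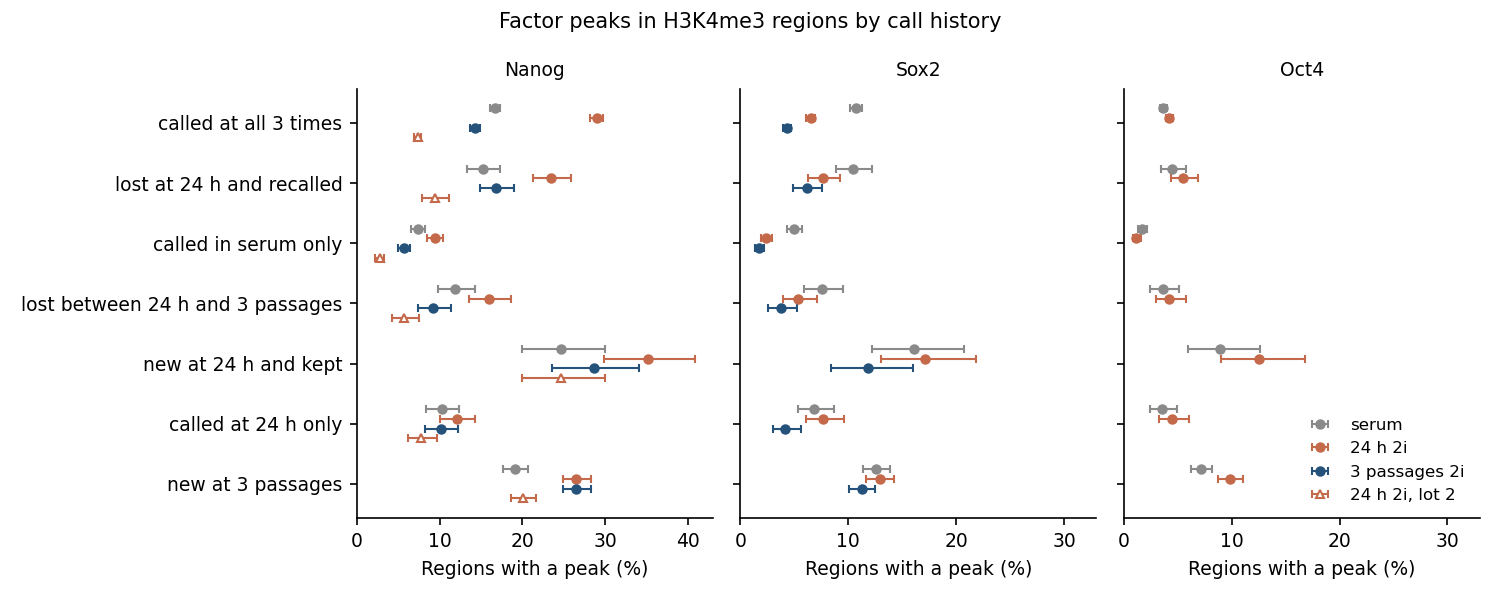
Percent of H3K4me3 regions that overlap a Nanog, Sox2 or Oct4 peak (horizontal axes), by call history (rows), with exact binomial 95% intervals that cover counting error only. Grey points are serum, orange 24 h, blue 3 passages and open triangles Nanog antibody lot 2 at 24 h: regions called in serum only have the lowest Nanog share at every time, and regions new at 3 passages have the same share at 24 h and 3 passages (26.5%).

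Nanog peaks of 24 h were kept at 3 passages less often in constant regions than in the other call histories, both those with and those without H3K4me3 at 3 passages. In the 13233 constant regions its share was 16.7% in serum, 29.0% at 24 h and 14.2% at 3 passages, highest on the first day. A Nanog peak was present at 24 h alone in 2089 of these regions and at 3 passages alone in 140. Of the constant regions bound at 24 h, 45.5% (43.9 to 47.1) were bound at 3 passages, against 63.5% of the regions that returned and 86.0% of those new at 3 passages. The kept share was 69.9% in regions of 24 h only and 53.9% in those called in serum only. It was 52.6% (43.9 to 61.1) in those lost between 24 h and 3 passages, and 53.4% over all regions. For Nanog peaks outside all H3K4me3 regions this share was 70.1%. With Nanog lists of equal length the constant regions held 16.7%, 14.3% and 10.3% in serum, at 24 h and at 3 passages. The high 24 h value was therefore not present among the strongest peaks, while the fall from 24 h to 3 passages was. In the regions that returned the equal-length shares at 24 h and 3 passages were 13.7% and 13.8%.

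Some regions that gained H3K4me3 held Nanog peaks before the mark was called. Of the 2689 regions new at 3 passages, 26.5% had a Nanog peak at 24 h, when they had no H3K4me3 call, and 26.5% had one at 3 passages. Over all 23044 regions the shares were 24.1% and 14.3%, so these regions were near the whole at 24 h and above it at 3 passages. In 613 regions the peak was present at both times, in 100 at 24 h alone and in 100 at 3 passages alone. In serum 19.2% of these regions already had one. With equal list lengths the shares were 19.2%, 19.97% and 22.9% in serum, at 24 h and at 3 passages. Sox2 peaks lay in 12.6%, 12.9% and 11.2% of them and Oct4 peaks in 7.14% in serum and 9.82% at 24 h. Over all regions the Sox2 shares were 9.79%, 6.81% and 4.86%, and the Oct4 shares 3.85% and 4.57%. The 304 gains kept from 24 h had the highest Nanog shares, 24.7% in serum, 35.2% (29.8 to 40.9) at 24 h and 28.6% at 3 passages, and Oct4 peaks in 12.5% at 24 h. The 937 regions of 24 h only had Nanog peaks in 12.1% at 24 h and in 10.1% at 3 passages. All 3 factors together were found at 24 h in 3.12% of all 23044 regions. The share was 10.5% in the kept gains, 7.03% in regions new at 3 passages and 4.02% in those that returned. It was 2.91% in regions lost between 24 h and 3 passages, 2.88% in those of 24 h only, 2.76% in constant regions and 0.756% in regions called in serum only.

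The order of the constant regions among these classes depended on the length of the Nanog list. With the full list of lot 1 at 24 h their share, 29.0%, was above that of regions new at 3 passages. With that list cut to its 25513 strongest peaks the constant regions had 14.3% and the regions new at 3 passages 19.97%, and with lot 2, which holds 21893 peaks, they had 7.33% and 20.1%. Both lots placed the serum-only regions lowest, at 9.43% and 2.73% with the full lists, and the regions that returned above them, at 23.5% and 9.39%. Both also placed the kept gains highest, at 35.2% and 24.7%.

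Regions that recovered width had more factor peaks than those that did not, by a smaller margin than the calls showed. Nanog peaks lay in 18.5% of recovered and 15.5% of still narrow regions in serum, in 30.2% and 24.0% at 24 h, and in 18.96% and 11.1% at 3 passages. Of the regions bound by Nanog at 24 h, 57.6% of the recovered and 42.9% of the still narrow ones were bound at 3 passages. Oct4 peaks at 24 h lay in 5.97% and 3.13%. In the 10030 regions that changed by less than 1.5-fold at 24 h, Nanog shares were 16.6%, 29.5% and 13.9% at the 3 times. The 1727 regions at least 1.5-fold wider at 3 passages than at 24 h had Nanog peaks in 31.8% at 24 h and 22.0% at 3 passages, against 28.5% and 13.0% of regions that differed by less. Their median length was 1747 bp and that of the others 2028 bp, so greater length did not go with the higher share.

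Centres of factor peaks were also counted per base, which takes region length out of the count. Bases covered by H3K4me3 at all 3 times held 133 Nanog peak centres per Mb at 24 h and 53.9 at 3 passages. Bases lost at 24 h and covered again held 134.8 and 81.4 per Mb, and bases covered in serum only held 87.3 and 45.9. Bases covered at 3 passages alone held 144.5 per Mb at 24 h and 143.3 at 3 passages. The part of these bases inside regions called at all 3 times held fewer, 71.2 and 65.3 per Mb. These densities come from the full Nanog lists of lot 1, which differ in length, and they depended on the list. With lot 2 at 24 h, bases covered at all 3 times held 24.2 per Mb. By that lot, bases lost and covered again held 44.4, bases of serum only 23.6, and bases of 3 passages alone 111.8. Densities with lists of equal length were not computed.

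**Figure D5:**
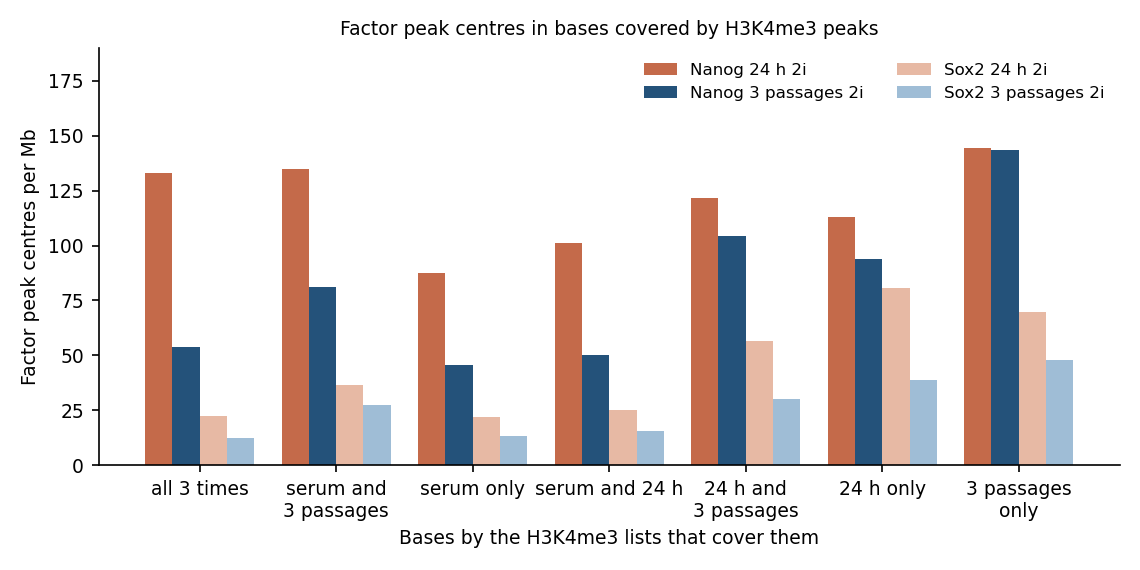
Centres of Nanog and Sox2 peaks per Mb (vertical axis) in bases of all regions, grouped by the H3K4me3 lists that cover them (horizontal axis), at 24 h (orange) and at 3 passages (blue). Nanog centres fall from 133 to 53.9 per Mb in bases covered at all 3 times and stay near 144.5 per Mb in bases covered at 3 passages only.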

How the data were processed

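Peaks were deposited by the authors as 1 list per condition, and 12 lists were used, 3 for H3K4me3 and 9 for Nanog, Sox2 and Oct4. Per the submitters' processing notes, the build was mm9 and the tools were MACS2, the aligners Bowtie 0.12.7, BWA 0.5.7 and TopHat, and Cufflinks 2.2.1 with Cuffdiff. Nothing says which aligner lies behind each list. The peak names in the deposited files speak of pooled replicates and a control, and what was pooled is not given further. The values used from the deposited lists were the fold enrichment, which is the authors' ratio of signal to that control, and the authors' −log10 q. Both served to describe, rank or select peaks of the same list. Across lists, 24 h peaks were compared with the weakest −log10 q of the 3-passage list, common −log10 q limits were tried, and named regions were ranked by a mean fold enrichment. These values need not be on a common scale. Depth is unknown because the lists hold no counts. The lists are selections: the highest number in a peak's name was 37751 in serum, 41613 at 24 h and 117835 at 3 passages, against 19309, 17467 and 18978 peaks deposited. How they were selected is not given, so a region without a peak may have been called and not selected.

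Peaks outside chromosomes 1 to 19 and X were left out (25 in serum, 32 at 24 h and 34 at 3 passages). Overlapping peaks were merged, and a region's width in a list is the summed width of its peaks. Positions are mm9, counted from 1. Sequences and gene names need an mm9 genome and were not used here. Named regions are those with the 5 highest fold enrichments of each class (mean over the lists that call them). For narrowed regions they are the 5 largest ratios of serum to 24 h width among serum widths of at least 2000 bp. For widened regions they are the 5 largest ratios of 24 h to serum width, without that limit. A selection of them is printed. Classes, lists and members were chosen with earlier results of these data known. Alternatives were a minimum −log10 q of 10, H3K4me3 lists of equal length, joining peaks up to 1000 bp apart, leaving out X, an overlap of 50%, a 2-fold limit, widths scaled to the list median, and a 1000 bp window. The code was tested on simulated data and run with Python 3.11.15, numpy 2.4.6, pandas 2.3.3 and scipy 1.17.1.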

Additional observations from a re-analysis of the deposited data

How the results depend on the processing

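Across 70 values of 11 results under 10 alternatives, 50 kept within their interval or within 1.5 times the count, and 20 moved. Only the median width ratio could change sign, and it did not under the alternatives run for it, while counts and shares cannot do so. Widths scaled to the list median, which takes out the shift common to all regions, were not tried for this ratio. No paired analysis was possible because each list pools its samples and gives no value per replicate, and no sample could be left out for the same reason. The level at which the lists end had the largest effect. With a minimum −log10 q of 10, 345 regions were called at 24 h alone, 39.4% of regions lost at 24 h returned, 60.3% of gains at 24 h were kept, 54.4% of narrowed regions recovered, and 10.4% of serum-only regions had Nanog at 24 h. Limiting all lists to the largest of their lowest −log10 q, 14.3, was chosen after seeing the data. It left 111 regions called at 24 h alone and 7543 at 3 passages alone, 53.8% returned, 78.1% of gains were kept, 57.9% recovered width, and 13.8% of returned regions had Nanog at 3 passages. In both cases the 24 h list lost the most peaks, and the return of lost calls (at the higher limit) and the keeping of gains (at both) went from a minority to a majority. The exchanged counts, added after seeing the data, are given beside the results they bear on. With H3K4me3 lists of equal length 27.2% of gains were kept and 4.94% of serum-only regions had Nanog at 3 passages. Joining nearby peaks gave a median log2 width ratio of 3 passages over 24 h of 0.14, and 8.44% for Nanog at 24 h in serum-only regions. A 2-fold limit gave a recovery of 54.2%. Nanog lists of equal length, also chosen after seeing the data, gave 13.7% at 24 h and 13.8% at 3 passages in returned regions, and 5.56% and 4.32% in serum-only regions. The order of these classes and the wider peaks at 3 passages held under each alternative run for them. For the median width ratio these did not include scaled widths. Narrow differences at the weak end of the lists, and shifts common to a whole list, cannot be resolved without read depth.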

Other observations

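The course of the calls differed between chromosomes. The X chromosome lost 18.9% of its 551 serum regions at 24 h, the lowest share, and the autosomes lost between 22.3% (chromosome 13) and 31.6% (chromosome 15). Of the regions lost on X, 33.7% (24.7 to 43.6) were called again at 3 passages. On the autosomes the return ran from 20.4% (14.5 to 27.4) on chromosome 19 to 34.9% (28.1 to 42.3) on chromosome 13. The share of narrowed regions that recovered width lay between 42.4% on chromosome 15 and 56.4% on chromosome 19. Most of these intervals overlap, and no test between chromosomes was made.

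Widening beyond the serum width was rare at 24 h and more frequent later. By at least 1.5-fold, 30 of the constant regions were wider than in serum at 24 h and 215 at 3 passages. On a log scale, 183 of the 215 regions were closer to their serum width than to their 3-passage width at 24 h, and 12 of the 30 were closer to serum than to their 24 h width at 3 passages. With widths divided by the list medians the numbers of widened regions were 221 and 447. The 358 regions narrower at 3 passages than at 24 h by this factor had median widths of 1772.5, 1408.5 and 745 bp in serum, at 24 h and at 3 passages. They held Nanog peaks in 29.9% at 24 h and in 14.0% at 3 passages.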
